A study of Mus musculus with 6 samples.

Results

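The genes described here encode the nuclear subunits of the mitochondrial respiratory chain and of ATP synthase, measured in mouse pre-pro-B cells labelled as deficient in Ebf1, with and without a virus that carries it. Members are all array probes whose gene name on the array begins with Nduf, Sdha, Sdhb, Sdhc, Sdhd, Uqcr, Cox4 to Cox8, Cyc1, Cycs or Atp5. The rule uses names alone and found 88 of the 27827 gene names on the array, read by 129 of its 41174 probes. They fall into complex I (NADH dehydrogenase, 58 probes), 2 probes of complex I assembly factors, complex II (succinate dehydrogenase, 6), complex III (11), cytochrome c (3), complex IV (cytochrome c oxidase, 19) and complex V (ATP synthase, 23). A further 7 probes carry names that match by spelling but belong to other proteins: Atp5s (now Dmac2l), Atp5sl (now Dmac2), Cox4nb (now Emc8) and Cox7a2l.

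Total RNA was hybridised to 6 Agilent 1-colour arrays, 3 per group. The Ebf1 group was cells of the genotype Ebf -/- infected with the retrovirus pMYs-Ebf1beta-IRES-EGFP, which carries Ebf1 and EGFP. The control group was cells of the same genotype infected with pMYs-IRES-EGFP, which carries EGFP alone. Cells of both groups thus carried the same genotype, labelled as lacking the gene. They grew over an OP9 stromal feeder layer with the cytokines interleukin 7, stem cell factor and Flt3-ligand, received virus packaged in Plat-E cells, and were sorted for EGFP 24 h after infection. The comparison addresses which transcripts change within that time when Ebf1, the transcription factor on which entry into the B lineage depends, is restored. No label says that the arrays of a group came from separate cultures or animals, so p-values measure the spread between these arrays, which may be technical.

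The respiratory chain carries electrons from NADH (through complex I) and succinate (through complex II) over complex III and the small protein cytochrome c to complex IV, where oxygen is reduced. Complexes I, III and IV pump protons across the inner mitochondrial membrane, and ATP synthase uses their return to make ATP. Some subunits of complex IV exist as pairs of genes, one active in most tissues and the other mainly in heart and skeletal muscle, such as Cox6a1 and Cox6a2.

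The probes of Cox6a2, which had the largest change, of its common partner Cox6a1, and of Cycs and Ndufa12, called on 3 of 3 probes each, are shown by their first 30 bases (of 60), because the result rests on what they detect. Positions are those of mm9, as the array files give them. Cox6a2 was read by 1 probe, on chromosome 7 (135349160 to 135349219), and its common partner Cox6a1 by 1 probe on chromosome 5 (115795726 to 115795785). The 3 Cycs probes lie on chromosome 6 (probe 1 at 50514522 to 50514581, probe 2 at 50515255 to 50515314 and probe 3 at 50514542 to 50514601), and probes 1 and 3 overlap, so they share bases. The 3 Ndufa12 probes lie on chromosome 10 (probe 1 at 93683562 to 93683621, probe 2 at 93662720 to 93666034 and probe 3 at 93662740 to 93666054), and probes 2 and 3 overlap. Probes of a gene are numbered by size of change. Which exon or untranslated region each probe lies in was not analysed here.
Cox6a2: agcaatcttcaaattggccttctgcacacc
Cox6a1: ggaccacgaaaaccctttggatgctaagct
Cycs probe 1: aattgtccttaaatacccactcagaaacac
Cycs probe 2: aatgatcttcgctggaattaagaagaaggg
Cycs probe 3: aagactaagttgtaaatcagaattgtcctt
Ndufa12 probe 1: aagaagattcatgaatgggttccacctttg
Ndufa12 probe 2: ctggtgggagaagacaaatatggaaataaa
Ndufa12 probe 3: tggaaataaatactacgaagacaacaagca

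Levels are given as log2 of the processed signal minus the 75th percentile of the same array, so 0 is the 75th percentile, and changes are the Ebf1 virus mean minus the control virus mean. On this scale a level says nothing about one gene against another, since each probe binds differently. Probes entered the test if the scanner software marked them as well above background on each of the 3 arrays of the Ebf1 group, the control group or both. Of the 129 member probes 120 were tested, for 84 of the 88 gene names. A probe was called when its p from limma, adjusted by Benjamini-Hochberg over all 20459 tested probes, was under 0.05.

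The 75th percentile signal was between 316 and 364 intensity units on the Ebf1 virus arrays and between 240 and 366 on the control virus arrays. Of all probes, 50.3% to 59.8% were well above background on Ebf1 virus arrays, against 46.3% to 50.2% on control virus arrays. All 9 genes listed for lymphoid progenitors were above background on every array, and 2 of them were called higher and 3 lower. Of 2 Ebf1 probes 1 was above background on all 6 arrays, at 0.29 ± 0.09 with Ebf1 virus and 0.44 ± 0.39 with control virus (SD, n = 3 each), and the other on none. The first was thus read in control virus cells labelled Ebf -/-, and was not called (limma adjusted p = 0.646). Whether the deleted allele or the virus carries the stretch it binds is not known here, so it checks nothing about the labels. The arrays lay on 3 slides: slide 1 held Ebf1 virus replicate 1 and control virus replicate 2, while the other slides held arrays of 1 group each. A fit with the slide as a fixed block therefore rests on that 1 pair. Ebf1 virus replicate 1 stood apart for these genes. It was the lowest of the 6 arrays for 48 of the 84 genes, each by its brightest tested probe, against 13 and 7 genes for Ebf1 virus replicates 2 and 3, and 8, 4 and 4 for control virus replicates 1, 2 and 3. Values without it are given below beside each member's call.

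Most respiratory chain probes had a small negative change, and few passed the test. Of the 120 tested member probes 11 were called lower and 1 higher, and 108 were not called. Among all tested probes 21.7% were called, 11.5% higher and 10.2% lower, so the share of members called, 10%, was under the background and the share called lower was near it. The count called lower was 21 with normexp correction, 23 with trend and robust moderation, 2 with no filter and 4 to 12 with 1 array left out. The count over all probes changed too, to 2633 to 3729 with 1 array left out, against 4439 with all 6 arrays. So the counts depend on the setting, and the members' share was set against the background in the main fit alone. With no filter, which adds probes to the adjustment, Cox6a2 and Cycs probe 1 alone of the 12 called probes kept their call. The log2 change was negative for 99 of the 120 member probes and positive for 21, with a median of -0.28, against -0.06 over all tested probes, of which 11296 of 20459 were negative. The 12467 other tested probes within the range of the middle 80 percent of member levels had a median change of -0.13. They were dimmer, with a median level of 1.53 against 4.86 for the members, so signal strength was not matched. Without Ebf1 virus replicate 1 the members' median was -0.20 and 7 probes were called lower and 2 higher. The groups of 3 arrays did not overlap for 54 of the 120 member probes, against 42.6% of all tested probes. Counted by gene, 6 of 84 genes were called lower and 1 higher. In these sorted populations, fewer cells of a type and less RNA per cell cannot be told apart.

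**Figure D1:**
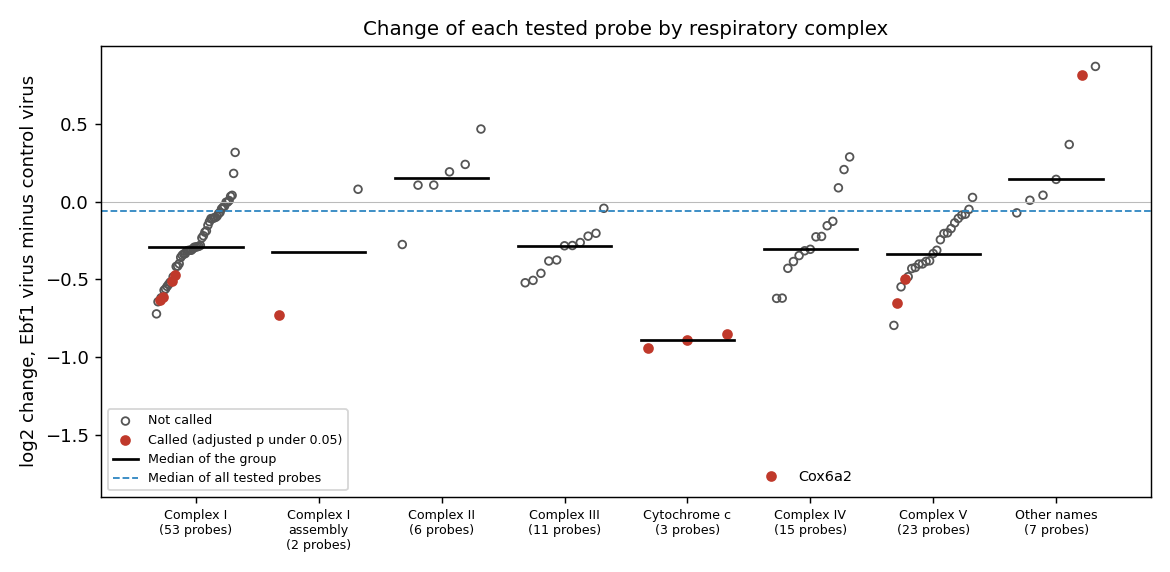
Log2 change (Ebf1 virus minus control virus, vertical axis) of each of the 120 tested probes, sorted within each complex. Filled red points are called probes (adjusted p under 0.05), black bars are medians and the dashed line is the median of all tested probes (-0.06). Complexes I, III, IV and V have medians between -0.33 and -0.28, the 3 cytochrome c probes lie together near -0.89, complex II and the group of other names lie above 0, and Cox6a2 stands alone at -1.76.

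Cox6a2, the subunit VIa isoform of heart and skeletal muscle, had the largest change of any member. Its level was 3.47, 3.34 and 3.31 on the Ebf1 virus arrays, against 4.97, 5.21 and 5.23 on the control virus arrays. The groups were more than a log2 unit apart and did not overlap. The change was -1.76 ± 0.14 (SE, limma adjusted p = 0.000129), a ratio of 0.295, Ebf1 virus over control virus. The change without Ebf1 virus replicate 1 was -1.81. Over the alternatives run, its adjusted p lay between 3e-08 and 0.0127, and within slide 1 the difference of the 1 array pair was -1.74. Cox6a1, the isoform of most other tissues, was at 8.62, 8.74 and 8.89 with Ebf1 virus, against 8.60, 9.06 and 9.06 with control virus. Those groups overlapped, and the change of -0.16 ± 0.18 was not called (limma adjusted p = 0.562). Within each array, the log2 difference between the Cox6a2 and Cox6a1 probes was lower by 1.61 with Ebf1 virus (change of the difference -1.61). An exact two-sided permutation test over the arrays gave p = 0.1, the smallest that 3 against 3 arrays allow, and 0.15 after adjustment over the 3 isoform pairs that could be compared.

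Because Cox6a2 is known as a muscle isoform, a list of 15 skeletal and heart muscle genes was set beside it. Of these 7 were tested, 6 were called higher and 0 lower, while Cox6a2 was lower. Genes above background only with Ebf1 virus, as Ckm was, entered the test through that group, so their direction was largely fixed. The count is thus partly set by the filter, and no conclusion about Cox6a2 is drawn from it. Among all tested probes 11.5% were called higher. The summed linear signal of the list was 181.5 to 200.1 times the 75th percentile with Ebf1 virus, against 74.3 to 80.7 times with control virus. Most of it came from Tnni2, a fast muscle troponin, at 7.54 with Ebf1 virus against 6.25 with control virus (log2). The sum thus mainly reflects that gene. Ckm, the muscle creatine kinase, was above background only with Ebf1 virus and at least 88.8-fold higher there. Mb (myoglobin), Myh2 and Myl1 were above background on no array. These muscle and stromal genes outside the rule were chosen as marker lists, and their part in the result was not tested.

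No other tissue-specific subunit of complex IV was called. Cox7a1, the heart and muscle partner of Cox7a2, was at -2.21, -2.41 and -1.93 with Ebf1 virus, against -2.55, -2.37 and -2.25 with control virus, and its groups overlapped. Its change of 0.21 ± 0.17 was not called (limma adjusted p = 0.431) and its sign turned to -0.10 with median scaling. Cox7a2, made in most tissues, was at 5.11, 5.96 and 6.10 with Ebf1 virus, against 6.30, 6.37 and 6.37 with control virus. The groups did not overlap, Ebf1 virus replicate 1 was the lowest array, and the change of -0.62 ± 0.26 was not called (limma adjusted p = 0.13). The difference Cox7a1 minus Cox7a2 changed by 0.83 between the groups (exact permutation p = 0.1, adjusted 0.15), and by 0.53 without Ebf1 virus replicate 1.

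Cox6b2, known as the testis isoform, changed by -0.23 ± 0.19 and its common partner Cox6b1 by -0.39 ± 0.26, neither called (limma adjusted p = 0.415 and 0.318). Their difference was 0.16 (exact permutation p = 0.8) and changed sign with the setting. Cox8b, the heart and muscle partner of Cox8a, was at -5.57, -5.08 and -4.41 with Ebf1 virus, against -6.82, -6.46 and -6.09 with control virus. The groups did not overlap, but it was well above background on only 1 Ebf1 virus array and on no control virus array, so it was not tested. Cox8a changed by -0.31 ± 0.15 (limma adjusted p = 0.184). Cox4i2, an isoform known from lung, Cox7b2 and Cox8c were above background on no array, while Cox4i1, the common partner of Cox4i2, was at 7.64, 7.39 and 7.52 with Ebf1 virus, against 7.69, 7.57 and 7.67 with control virus, and was not called.

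**Figure D2:**
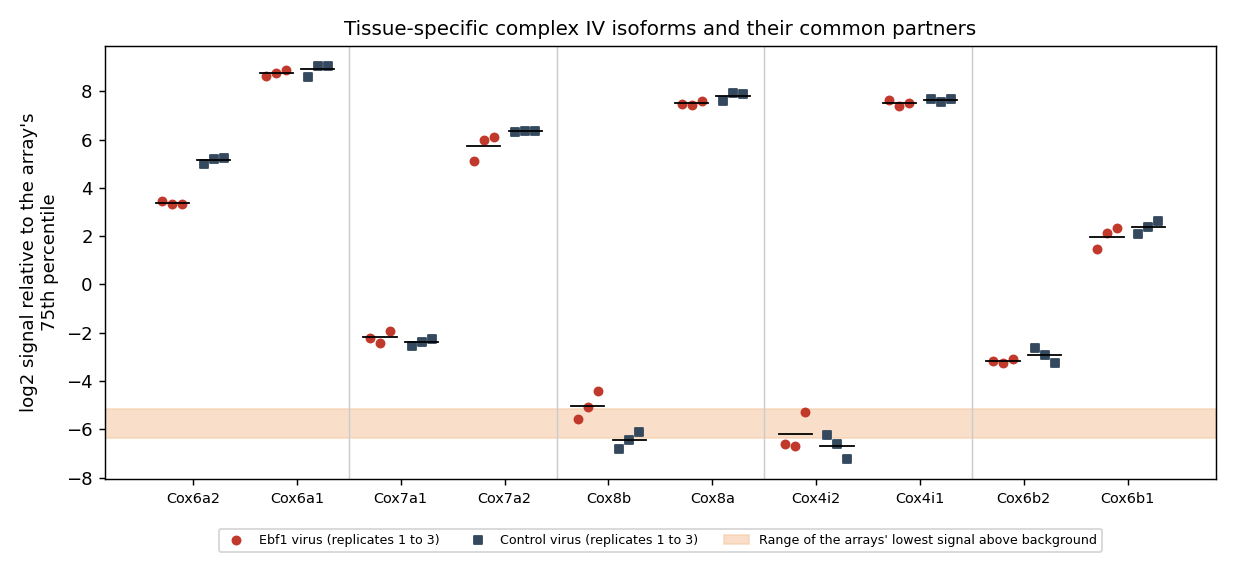
Level of tissue-specific complex IV isoforms and, to the right of each, the common partner on each array (log2 signal relative to the array's 75th percentile). Red circles are Ebf1 virus arrays, dark squares control virus arrays, bars the group means, and the shaded band spans the arrays' lowest signals that were well above background. Cox6a2 is the one isoform whose Ebf1 virus arrays lie clearly below its control virus arrays, Cox8b and Cox4i2 lie in or near the band, and heights of different probes cannot be compared.

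Of the 15 tested probes of complex IV Cox6a2 alone was called, and the median of the complex was -0.31. Cox5b, a zinc-binding subunit on the matrix side, was at 6.79, 6.84 and 6.79 with Ebf1 virus, against 7.06, 7.12 and 7.19 with control virus. Its groups did not overlap, yet the change of -0.32 ± 0.13 missed the threshold (limma adjusted p = 0.123). Ndufa4, named for complex I but now counted with complex IV, was at 6.61, 6.41 and 6.69 with Ebf1 virus, against 6.20, 6.43 and 6.23 with control virus (change 0.29 ± 0.15, limma adjusted p = 0.208). It was 1 of 3 complex IV probes with a positive change, and the change turned to -0.02 with median scaling.

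Cycs, the somatic cytochrome c that carries electrons from complex III to complex IV and that also starts the caspase cascade when it leaves mitochondria, was lower on all 3 of its probes. Probe 1 read 2.59, 2.76 and 3.04 with Ebf1 virus, against 3.61, 3.81 and 3.77 with control virus. Probe 2 read 4.91, 5.57 and 5.66 with Ebf1 virus, against 6.38, 6.35 and 6.08 with control virus. Probe 3, which overlaps probe 1, read 1.81, 1.96 and 2.20 with Ebf1 virus, against 2.74, 2.97 and 2.81 with control virus. On each probe every Ebf1 virus array lay below every control virus array, and Ebf1 virus replicate 1 was lowest. The changes were -0.94 ± 0.16, -0.89 ± 0.22 and -0.85 ± 0.16 (limma adjusted p = 0.0061, 0.0274 and 0.00827). Without Ebf1 virus replicate 1 they were -0.84, -0.66 and -0.76, all still called, and within slide 1 they were -1.23, -1.44 and -1.16. Probe 2 lost its call with quantile normalization (limma adjusted p = 0.0506) and without control virus replicate 1, 2 or 3 (0.0796, 0.0879 and 0.0517), while probe 1 kept it under every alternative run.

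Complex I, the largest complex, had a median of -0.29 over 53 tested probes, of which 4 were called lower and 0 higher, and 48 were negative. Its 7 tested core subunit probes, which read the genes that bind NADH and carry the iron-sulphur clusters, had a median of -0.11 with none called. The 46 tested probes of supernumerary subunits, which surround the core, had a median of -0.31 and held all 4 calls. Whether core and supernumerary subunits differ was not tested.

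Ndufa12, a supernumerary subunit near the matrix arm, was called on all 3 of its probes. Its probe 1 read 5.32, 5.58 and 5.61 with Ebf1 virus, against 6.04, 6.17 and 6.13 with control virus, and the groups did not overlap on any of the probes. The changes were -0.62 ± 0.15, -0.51 ± 0.15 and -0.47 ± 0.14 (limma adjusted p = 0.022, 0.0464 and 0.0497). Without Ebf1 virus replicate 1 only probe 1 was called, at -0.52, and the others were at -0.43 and -0.40 (limma adjusted p = 0.0938 and 0.0976). With the slide as a fixed block none of the 3 passed, at -0.86, -0.74 and -0.67 (limma adjusted p = 0.0843, 0.132 and 0.151). Probe 1 was also lost without control virus replicate 2 or 3 (limma adjusted p = 0.0885 and 0.0767). Probe 2 was lost without Ebf1 virus replicate 2 or control virus replicate 1, 2 or 3 (limma adjusted p = 0.106, 0.0979, 0.151 and 0.0979), and probe 3 in each fit that left out 1 array (0.0751 to 0.163). Probes 2 and 3 also lost their call with quantile normalization (0.0729 and 0.143) and median scaling (0.0699 and 0.0871).

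Ndufaf2, an assembly factor that resembles Ndufa12 and is thought to hold its place while complex I is built, was at 2.93, 3.13 and 3.37 with Ebf1 virus, against 4.00, 3.90 and 3.70 with control virus. Every Ebf1 virus array lay below every control virus array, and the change was -0.73 ± 0.17 (limma adjusted p = 0.0214). Without Ebf1 virus replicate 1 the change was -0.62 (limma adjusted p = 0.0468), and with the slide as a fixed block -0.98 (0.0869). The call was also lost without Ebf1 virus replicate 2 or control virus replicate 1 or 2 (limma adjusted p = 0.0605, 0.0635 and 0.0766). Ndufaf1, the other assembly factor matched by the rule, was at 2.98, 2.72 and 2.83 with Ebf1 virus, against 2.54, 2.88 and 2.88 with control virus. Its groups overlapped and its change of 0.08 ± 0.16 was not called (limma adjusted p = 0.756).

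Ndufab1, the mitochondrial acyl carrier protein that serves fatty acid and lipoate synthesis as well as complex I, had 3 tested probes of which 1 was called. That probe read 1.77, 1.67 and 1.97 with Ebf1 virus, against 2.28, 2.51 and 2.52 with control virus, a change of -0.63 ± 0.15 (limma adjusted p = 0.024). The others changed by -0.53 ± 0.17 and -0.57 ± 0.19, without overlap of the groups but above the threshold (limma adjusted p = 0.0656 and 0.0708). Without Ebf1 virus replicate 1 the called probe was at -0.62 (limma adjusted p = 0.0488). Its call was lost without Ebf1 virus replicate 2 or control virus replicate 2 or 3 (limma adjusted p = 0.0742, 0.0927 and 0.0888), and with the slide as a fixed block (0.164).

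Of the further complex I genes named here, Ndufc1 and Ndufa5 lay just above the threshold and the others well above it. Ndufc1, a small membrane subunit, was at 4.81, 5.20 and 5.49 with Ebf1 virus, against 5.67, 5.83 and 5.93 with control virus, a change of -0.64 ± 0.20 (limma adjusted p = 0.0556). Ndufa5, chosen after its values were seen, had the largest point estimate of complex I, -0.72 ± 0.24 (limma adjusted p = 0.0731), with 4.73 on Ebf1 virus replicate 1 and 5.43 and 5.63 on the others, against 5.99, 5.82 and 6.14 with control virus. The core subunits Ndufv1, which binds NADH, Ndufs1 and Ndufs7, which hold iron-sulphur clusters, changed by -0.29 ± 0.14, -0.29 ± 0.14 and -0.34 ± 0.17 (limma adjusted p = 0.167, 0.182 and 0.183). For all 3 core genes, named for their small p, the groups did not overlap. This held for 4 of the 7 tested core probes and for 42.6% of all tested probes. Ndufb5, a membrane-arm subunit, overlapped between groups at -0.33 ± 0.18 (limma adjusted p = 0.223).

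Complex II, which also works in the citric acid cycle, had a median of 0.15 over 6 tested probes, 5 of them positive, and none was called. Of these probes 3 read Sdha, and the difference from the other complexes was not tested. Counted by gene, the median of its 4 genes was 0.11, or -0.01 with normexp correction. Sdha, the flavoprotein, was positive on all 3 probes, between 0.11 and 0.47. Its brightest probe read 2.51, 2.13 and 2.26 with Ebf1 virus, against 2.39, 2.15 and 2.05 with control virus, with overlapping groups. Sdhb, the iron-sulphur subunit, read 4.69, 5.0 and 4.91 with Ebf1 virus, against 4.76, 4.60 and 4.66 with control virus, a change of 0.19 ± 0.15 (limma adjusted p = 0.388). Sdhd, a membrane anchor, was the exception, at 5.31, 5.28 and 5.50 with Ebf1 virus, against 5.76, 5.66 and 5.51 with control virus (change -0.28 ± 0.15, limma adjusted p = 0.214). With median scaling, which shifted the median of all tested probes to -0.37, the median of complex II was -0.16 and so above that of all probes but below 0.

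Complex III had 11 tested probes, all with a negative change, a median of -0.28 and no call. Uqcrq, a small subunit at the quinone side, came nearest: 6.82, 6.96 and 7.08 with Ebf1 virus, against 7.39, 7.36 and 7.50 with control virus. That change was -0.46 ± 0.14 (limma adjusted p = 0.054). Cyc1, the haem protein that hands electrons to cytochrome c, was at 4.18, 4.09 and 3.99 with Ebf1 virus, against 4.75, 4.34 and 4.70 with control virus, a change of -0.51 ± 0.16 (limma adjusted p = 0.0622). Uqcrc2, a core protein, changed by -0.38 ± 0.15 (limma adjusted p = 0.109). For these 3 genes, named for their small p, the groups did not overlap. This held for 4 of the 11 complex III probes and for 42.6% of all tested probes. Uqcrh, the hinge protein, read 7.42, 7.92 and 8.19 with Ebf1 virus, against 8.12, 8.19 and 8.35 with control virus, and the groups overlapped. With limma's trend and robust options Uqcrq and Cyc1 were called (adjusted p = 0.0222 and 0.0266).

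ATP synthase had a median of -0.33 over 23 tested probes, 22 of them negative, with 2 called lower and 0 higher. Both calls fell among the 15 probes of the membrane part and stalk, and none among the 8 probes of the catalytic head, where the median was -0.31. Atp5k, subunit e of the membrane part, was at 4.17, 4.56 and 4.75 with Ebf1 virus, against 5.12, 5.10 and 5.22 with control virus. Its change was -0.65 ± 0.18 (limma adjusted p = 0.0373), and without Ebf1 virus replicate 1 it was -0.49 (0.062). The call was also lost without Ebf1 virus replicate 2 or control virus replicate 1, 2 or 3 (limma adjusted p = 0.0765, 0.0793, 0.0981 and 0.117), with quantile normalization (0.0739) and with the slide as a fixed block (0.0756). Atp5g1, 1 of 3 genes for subunit c of the rotor ring, was at 5.35, 5.37 and 5.39 with Ebf1 virus, against 5.85, 5.81 and 5.94 with control virus. The arrays within each group lay close together, and the change was -0.50 ± 0.13 (limma adjusted p = 0.0318). That call was lost with normexp correction (adjusted p = 0.0728) and in each fit that left out 1 array, and also with the slide as a fixed block, with median scaling and with quantile normalization. The change without Ebf1 virus replicate 1 was -0.48. Atp5g2 and Atp5g3, which encode the same mature subunit c and were chosen after their values were seen, changed by -0.20 ± 0.14 and -0.14 ± 0.16 on their brightest probes, neither called.

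In the catalytic head, Atp5a1 (the alpha subunit) was at 6.51, 6.51 and 6.63 with Ebf1 virus, against 6.91, 7.09 and 6.93 with control virus, a change of -0.42 ± 0.14 (limma adjusted p = 0.062). Atp5c1 (the gamma subunit, the turning shaft) changed by -0.40 ± 0.17 and Atp5e (epsilon) by -0.43 ± 0.20 (limma adjusted p = 0.126 and 0.161). The brightest probe of Atp5b, the catalytic beta subunit, read 8.01, 8.03 and 8.13 with Ebf1 virus, against 7.82, 8.30 and 8.38 with control virus. Its groups overlapped (change -0.11 ± 0.18, limma adjusted p = 0.698), and the change turned to 0.02 with quantile normalization. Atp5j, coupling factor 6 of the stalk, was at 6.54, 6.84 and 6.97 with Ebf1 virus, against 7.18, 7.33 and 7.29 with control virus, a change of -0.48 ± 0.16 (limma adjusted p = 0.069).

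**Figure D3:**
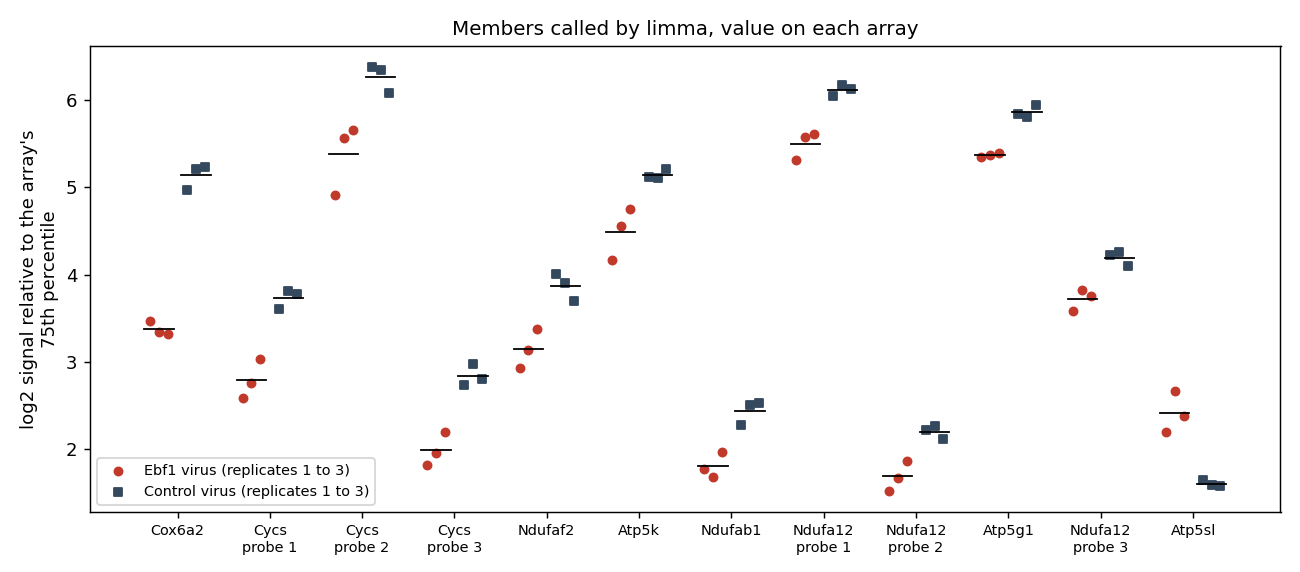
Level of the 12 called member probes on each array (log2 signal relative to the array's 75th percentile), ordered by change from the most negative (left) to Atp5sl (right). Red circles are Ebf1 virus arrays, dark squares control virus arrays, each in the order of replicates 1 to 3, and bars are group means. No called probe here has overlapping groups, which also holds for 4436 of the 4439 called among all tested probes. Ebf1 virus replicate 1 is the lowest array for 9 of the 11 probes that were lower.

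The 1 member called higher belongs to the names that match by spelling. Atp5sl, now Dmac2, an assembly component of the membrane arm of complex I, read 2.19, 2.67 and 2.38 with Ebf1 virus, against 1.64, 1.58 and 1.57 with control virus. The groups did not overlap, and the change was 0.81 ± 0.16 (limma adjusted p = 0.0111), or 0.92 without Ebf1 virus replicate 1. Its second probe changed by 0.87 ± 0.45 (limma adjusted p = 0.206), with overlapping groups and a low signal. With median scaling the called probe was at 0.50 (limma adjusted p = 0.286), and with the slide as a fixed block at 0.61 (0.211). Cox7a2l, which links complexes III and IV into supercomplexes, changed by 0.14 ± 0.16 and Atp5s, now Dmac2l, by 0.04 ± 0.15 on its brightest probe, neither called (limma adjusted p = 0.551 and 0.873).

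The median of the genes' deviations from their own mean over 6 arrays summarises how the whole set moved by array. It was -0.26, -0.12 and 0.01 on Ebf1 virus replicates 1, 2 and 3, against 0.09, 0.15 and 0.21 on control virus replicates 1, 2 and 3. So Ebf1 virus replicate 3 lay nearer to control virus replicate 1 than to Ebf1 virus replicate 1. Complex V stood at -0.29, -0.15 and -0.03 on the Ebf1 virus arrays, with replicate 1 lowest for 12 of its 15 genes, against 0.13, 0.18 and 0.27 on the control virus arrays. Complex II did not follow this order, at 0.01, 0.04 and 0.01 with Ebf1 virus, against 0.18, -0.14 and -0.12 with control virus.

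**Figure D4:**
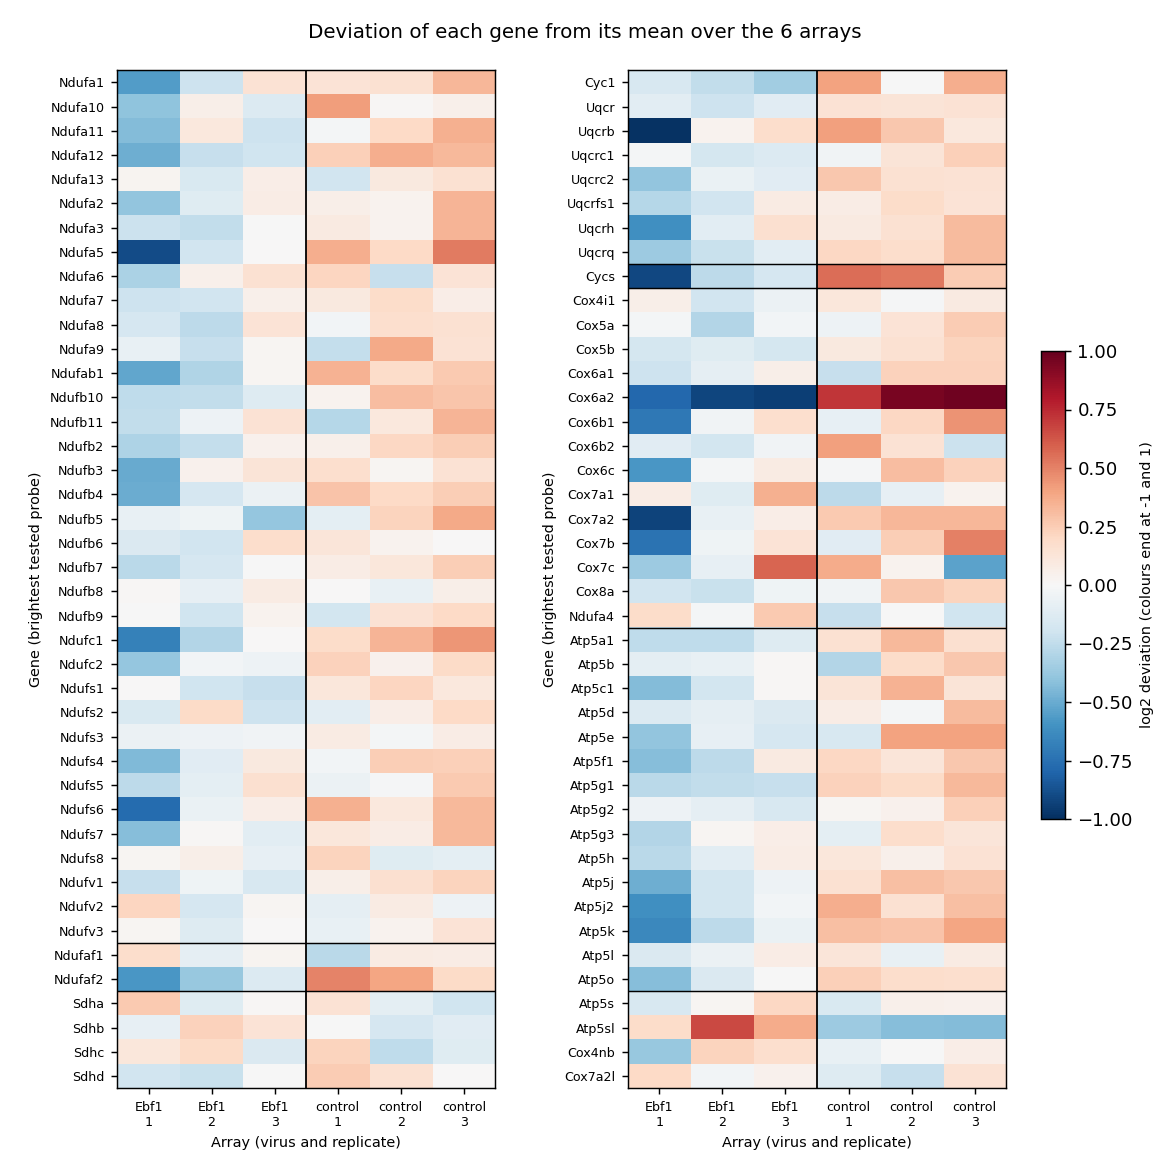
Deviation of each of the 84 tested genes (rows, by brightest tested probe, grouped by complex with black lines) from its own mean over the 6 arrays (columns, Ebf1 virus left, control virus right), in log2 units with colours ending at -1 and 1. Most rows are blue in the Ebf1 virus replicate 1 column (48 genes have their lowest value there), paler in Ebf1 virus replicates 2 and 3, and red in control virus columns. Cox6a2 and Cycs have the deepest contrast between the groups. Atp5sl and the complex II genes Sdha, Sdhb and Sdhc are among the rows that do not follow the pattern, while Sdhd does.

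Of the 27 genes with several tested probes, the probes differed in call for 2 (Ndufab1 and Atp5sl) and in sign for 4. Those 4 were Ndufb2, Ndufv3, Atp5j2 and Atp5s, chosen after their values were seen, and none of their probes was called. The 9 untested probes were Cox8b, Cox4i2, Cox7b2, Cox8c and 1 probe each of Ndufab1, Ndufs1, Ndufs4, Ndufs5 and Ndufv2, designed on a cDNA other than the RefSeq transcript. That of Ndufs1 lay on the plus strand, opposite to the tested Ndufs1 probe.

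Few genes of the same pathway outside the rule were called, beside 21.7% of all tested probes (11.5% higher and 10.2% lower). Of 22 tested assembly factors 1 was called higher and 1 lower, with a median of -0.13. The first was Cox19, a copper carrier for complex IV, at 4.11 with Ebf1 virus against 3.57 with control virus (change 0.54 ± 0.16, limma adjusted p = 0.0466). The other was Cox18, which inserts a complex IV subunit into the membrane, at 2.29 with Ebf1 virus against 2.99 with control virus (change -0.70 ± 0.18, limma adjusted p = 0.0292). A second Cox18 probe of nearly the same level, which overlaps it, changed by -0.57 ± 0.20 and was not called (limma adjusted p = 0.0812). Cox19 lost its call with normexp correction (adjusted p = 0.051), with median scaling (0.649, at 0.23) and in each fit that left out 1 array, and Cox18 with quantile normalization (0.051) and without Ebf1 virus replicate 2 or control virus replicate 1, 2 or 3 (0.0571, 0.0538, 0.106 and 0.0849). With Ebf1 virus replicate 1 left out they were at 0.50 and -0.54. Of 19 tested citric acid cycle genes, each by its brightest probe, 2 were called lower and 0 higher, with a median of -0.17. A dimmer Dlst probe was called higher (change 0.62 ± 0.16, limma adjusted p = 0.0315), while the brightest Dlst probe was at -0.11 and not called. Pcx, pyruvate carboxylase, which feeds the cycle, changed by -1.11 ± 0.17 (limma adjusted p = 0.00327) and Suclg1, a subunit of succinyl-CoA ligase, by -0.62 ± 0.15 (limma adjusted p = 0.0217). Suclg1 lost its call with quantile normalization (adjusted p = 0.0833) and without Ebf1 virus replicate 3 or control virus replicate 1 or 2 (0.0625, 0.0598 and 0.0825). With Ebf1 virus replicate 1 left out Pcx and Suclg1 were at -1.22 and -0.60.

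Regulators of mitochondrial biogenesis were called lower in 3 of 14 tested genes and higher in 0, with a median of -0.19. Among all tested probes 21.7% were called and 10.2% were called lower. Pprc1 and Ppargc1b, coactivators of the Pgc1 family that act with Nrf1, changed by -1.09 ± 0.16 and -0.75 ± 0.17 (limma adjusted p = 0.00245 and 0.0208). Lrpprc, which stabilises mitochondrial mRNAs, changed by -0.60 ± 0.14 (limma adjusted p = 0.021). A dimmer Lrpprc probe changed by 0.23 ± 0.19 and was not called. Ppargc1b lost its call without Ebf1 virus replicate 3 or control virus replicate 1 or 3 (adjusted p = 0.055, 0.0622 and 0.0764), and Lrpprc without control virus replicate 2 or 3 (0.0877 and 0.0706). With Ebf1 virus replicate 1 left out Pprc1, Ppargc1b and Lrpprc were at -1.02, -0.63 and -0.52. Of the 7 called genes of these 3 lists, each by its brightest probe, Cox18 alone kept its call with the slide as a fixed block. The 11 others were not called, Nrf1 at 0.19 ± 0.15, Gabpa at -0.22 ± 0.16 and Tfam at -0.34 ± 0.13 among them, and Ppargc1a was above background on no array. Of the subunits encoded in the mitochondrial genome the array held 2 by name, COX2 (8.58 with Ebf1 virus against 8.64 with control virus) and CYTB (6.25 with Ebf1 virus against 6.50 with control virus), and neither was called. Nrf1, Gabpa, Tfam, COX2 and CYTB were named for their role, after their values were seen.

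Promoters of member genes are printed for 3 genes, since factors known to act on respiratory genes bind there: Cycs (called, the 1 member whose window holds the EBF motif), Atp5k (called) and Cox6a1 (not called), the last a pair with the NRF1 motif. Sequences are from RefSeq on GRCm38.p6, run 5′ to 3′ on the gene's strand from upstream of its start site to 50 bases past it, and capitals mark the motif. The windows are chr6:50566520-50566819 (minus strand) for Cycs, chr5:108434350-108434649 (minus strand) for Atp5k and chr5:115348909-115349208 (minus strand) for Cox6a1.
Cycs: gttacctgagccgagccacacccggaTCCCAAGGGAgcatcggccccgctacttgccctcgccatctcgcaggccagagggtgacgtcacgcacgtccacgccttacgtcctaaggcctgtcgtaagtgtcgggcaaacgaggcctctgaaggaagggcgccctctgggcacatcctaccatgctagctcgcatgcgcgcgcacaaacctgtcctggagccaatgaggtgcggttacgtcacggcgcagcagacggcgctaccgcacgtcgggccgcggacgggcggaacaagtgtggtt
Atp5k: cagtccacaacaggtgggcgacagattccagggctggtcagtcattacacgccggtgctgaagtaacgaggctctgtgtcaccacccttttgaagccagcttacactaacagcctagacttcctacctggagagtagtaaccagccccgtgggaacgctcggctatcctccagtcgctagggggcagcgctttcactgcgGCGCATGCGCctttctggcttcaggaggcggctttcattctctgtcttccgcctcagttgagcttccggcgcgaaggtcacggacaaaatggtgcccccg
Cox6a1: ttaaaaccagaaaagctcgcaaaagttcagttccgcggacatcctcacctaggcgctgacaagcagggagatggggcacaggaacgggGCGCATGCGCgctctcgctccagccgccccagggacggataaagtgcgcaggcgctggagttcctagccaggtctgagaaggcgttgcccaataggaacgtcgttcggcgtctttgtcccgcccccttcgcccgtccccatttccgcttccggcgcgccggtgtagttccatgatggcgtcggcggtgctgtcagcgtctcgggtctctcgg

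Windows were found for 72 member genes and searched on both strands for 4 motifs, none of which contains another. The EBF motif, TCCC and GGGA parted by any pair of bases, was in 1 of the 72 genes (Cycs, starting 224 bases before the start site), or 1.39%, against 1.06% of all 27025 genes with a window. The NRF1 motif, GCGCA followed directly by TGCGC, was in 5 genes (6.94%, against 1.07% of all genes), which were Atp5g2, Atp5k, Cox6a1, Ndufa11 and Uqcrc1. Of these only Atp5k was called. The GABP motif CCGGAAGT was in 5 genes (6.94%, against 4.31%) and the YY1 motif AAGATGGC in 11 (15.3%, against 3.19%), Atp5sl among them. Member windows held a median of 19.5 CpG dinucleotides, against 7 in all windows, so the shares differ in base composition as well as in gene group. A match describes letters and no binding was measured.

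Markers of other cells were called too, although the cells had been sorted for EGFP, a gate that leaves out feeder cells without virus. The 9 lymphoid progenitor genes, which mark the sorted cells themselves, had changes from -1.82 (Kit) to 2.62 (Ly6d). Of 10 tested OP9 stromal genes 3 were called higher and 0 lower, with a summed linear signal of 28.6 to 37.5 times the 75th percentile on Ebf1 virus arrays, against 19.6 to 27.0 times on control virus arrays, and all 12 listed genes were above background on at least 1 array. Of 7 tested plasmacytoid dendritic cell genes 2 were called higher and 2 lower (73.9 to 88.1 times, against 82.5 to 95.5 times). Of 4 tested erythroid genes 2 were higher and 1 lower (sums of 2.1 to 2.5 times, against 4.6 to 7.4 times). Of 4 myeloid genes 1 was higher and 2 lower (1.3 to 1.8 times, against 3.8 to 5.3 times). Of 5 genes of T and NK cells 1 was higher and 2 lower (48.7 to 57.1 times, against 13.4 to 19.5 times). Such sums can rest on few bright genes. A gene above background in 1 group alone entered the test through that group, so these counts too can partly follow the filter. Among all tested probes 11.5% were called higher and 10.2% lower. Klk1 (in the dendritic cell list) and Cd8a (T cell) were above background on no array. The part of these cells in the respiratory gene values was not tested.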

How the data were processed

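Members and gene lists were chosen with earlier results of these data known. Spot intensities on a linear scale were deposited by the authors: Agilent Feature Extraction 10.5.1.1 made them, per the file headers, with background subtraction and no normalisation between arrays. The deposited series table holds the same intensities (equal within 0.1 percent at all 45018 features per array). Here outlier-flagged spots were left out, log2 was taken, each array's 75th percentile was subtracted and spots of a probe were averaged. Of 41174 probes 20459 were tested with limma 3.58.1 (R 4.3.3, lmFit and eBayes, two-sided, Benjamini-Hochberg, threshold 0.05); the precision is limited by the number of arrays. The genes named are called members, isoform pairs, the 3 smallest p-values of each list, the 3 highest and 3 lowest signals, and up to 3 called genes of each list outside the rule. A gene is represented by its tested probe of highest mean. Of the member probes 112 matched a RefSeq accession of GRCm38.p6, and 8 had another symbol there. No probe on the array carried the name Ndufa4l2, so its pair with Ndufa4 was not compared.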

Additional observations from a re-analysis of the deposited data

How the results depend on the processing

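Against 11 member probes called lower, 1 called higher and 4439 of all probes called, the count of lower members was 21 with normexp correction, 7 with quantile normalization, 2 with no filter, 3 with the replicate block, 7 with the slide as a fixed block, 23 with trend and robust moderation, 6 counted by gene, and 4 to 12 with 1 array left out. The higher member was lost (0 called) with median scaling, no filter, the slide as a fixed block and, chosen after seeing the data, without Atp5s, Atp5sl, Cox4nb and Cox7a2l; with 1 array left out 1 to 2 were called. Over all probes 1996 were called with no filter, 2168 with the slide as a fixed block and 2633 to 3729 with 1 array left out. The members' median (-0.28) was -0.15 with quantile normalization, -0.59 with median scaling (all tested probes -0.37), -0.38 with the slide as a fixed block and -0.32 to -0.20 with 1 array left out. Of the 12 called probes, 12 kept their call with the filter on all 6 arrays, the random slide block, trend and robust moderation and the series table, and 2, Cox6a2 and Cycs probe 1, with no filter, which adds probes to the adjustment. The replicate numbers shared by the groups did not pair the arrays: same-numbered arrays correlated in their deviations at -0.17, -0.25 and 0.10, and the highest of the other pairs, 0.29, was Ebf1 virus replicate 1 with control virus replicate 2, which share a slide. With the replicate block 4 of the 12 called probes kept their call (Cox6a2, Cycs probes 1 and 3, and Atp5sl). The sign changed for Cox6b2 minus Cox6b1 (-0.088 with quantile normalization, -0.14 to 0.44 with 1 array left out, negative without Ebf1 virus replicate 1 or control virus replicate 3). Among genes that were not called it changed with 1 array left out for Sdha (0.00 to 0.20), Ndufaf1 (-0.037 to 0.14) and Atp5s (-0.051 to 0.13), for Sdha with normexp (-0.048), for Atp5b with quantile normalization (0.017), and with the fixed slide block for Cox4i1 (0.072) and Atp5s (-0.21). With median scaling it changed for Cox7a1 (-0.10), Ndufa4 (-0.022), Ndufaf1 (-0.23), Sdhb (-0.12), Sdha (-0.20), Cox7a2l (-0.17) and Atp5s (-0.27). The causes were not tested. Cox4i2, Cox7b2, Cox8b and Cox8c lay too near background for a change to be measured.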
